A study of Homo sapiens with 6 samples.

Results

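The control arm of the study was THP-1 cells carrying a stably integrated vector without insert, the empty vector (EV). THP-1 is a human monocytic leukaemia line that carries a fusion of KMT2A (MLL) with MLLT3 (AF9). The 3 EV libraries were chosen by their label, out of 6 libraries in the series. The other group, cells that overexpress PTX4, is not compared here. All libraries carry the same batch in the labels and are described there as biological replicates of the same parent line. Whether the transduced cells were a pool or a clone, and which promoter the vector carries, are not given in the sources used here. RNA with poly(A) tails was sequenced, and the levels below are the deposited TPM, a length-scaled share of transcripts, which allows genes to be set beside each other.

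Monocytes arise from progenitors in which the transcription factors PU.1 (SPI1), C/EBP alpha and IRF8 switch on the myeloid programme. Promyelocytes fill azurophil granules with serine proteases and myeloperoxidase, and mature monocytes then gain surface receptors such as CD14. Leukaemias with an MLL fusion are known for arrest at an immature stage and for sustained expression of HOXA9 and its partners.

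Before the levels, 1 library stood apart. EV replicate 3 differed from EV replicate 1 by more than 2-fold at 772 of the 13577 genes that reached 1 TPM in all 3 libraries (5.69%). EV replicates 1 and 2 differed that much at 134 genes (0.987%), and replicates 2 and 3 at 327 (2.41%). Depth was 29670641 to 32691577 expected counts. Mitochondrially encoded genes took 4.75% to 5.91% of counts. The chi-square statistic between library pairs was 12.3, 74.3 and 41.3 per degree of freedom for replicates 1 and 2, 1 and 3, and 2 and 3. No pair agreed within counting error, so none was treated as the same library deposited again. That the libraries are separate samples is stated by the labels alone.

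The line was described by 5 marker genes: SPI1, LYZ, CD33, HOXA9 and MPO. All 5 were above 1 TPM in every library, a limit that 56.3% of protein-coding genes also passed. Reaching it does not by itself mark a lineage, and the lists of cell type markers are given further on. Of these genes, CD33 and HOXA9 have an entry in the RefSeq table of promoters (build GRCh38.p14), and SPI1, LYZ and MPO do not. The 250 bases before the RefSeq start are shown for both, as the surface marker and the leukaemia regulator among the 5. The RefSeq starts differ from the outer ends of the GENCODE gene models given below: the HOXA9 window lies inside the longer GENCODE model, and the CD33 window runs slightly past the GENCODE start. Capitals mark every match, on either strand, to the letters GAGGAA, which hold the core of many PU.1 and other ETS sites and read TTCCTC on the opposite strand. They also mark CCAAT, which reads ATTGG on the opposite strand, and TATAAA, whose opposite strand reads TTTATA. None of these 3 words overlaps another in either window.
CD33, chr19:51224830-51225079, plus strand: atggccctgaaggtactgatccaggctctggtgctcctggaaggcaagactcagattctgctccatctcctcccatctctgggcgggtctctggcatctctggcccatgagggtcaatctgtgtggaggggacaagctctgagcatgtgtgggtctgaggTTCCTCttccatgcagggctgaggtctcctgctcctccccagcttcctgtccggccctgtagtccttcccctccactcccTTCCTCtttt
HOXA9, chr7:27165538-27165787, minus strand: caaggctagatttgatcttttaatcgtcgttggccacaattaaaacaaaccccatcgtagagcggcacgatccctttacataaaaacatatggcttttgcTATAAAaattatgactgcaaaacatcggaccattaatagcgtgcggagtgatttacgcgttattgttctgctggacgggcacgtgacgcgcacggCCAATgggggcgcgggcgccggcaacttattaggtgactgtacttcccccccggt

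The CD33 window holds the GAGGAA word at 90 and 10 bases before the start, both on the opposite strand. The HOXA9 window holds TATAAA at 150 bases and CCAAT at 55 bases before the start. GAGGAA was present in 23.4% of 27305 promoter windows of the same length, in 22.7% of the 9746 windows of genes that reached 1 TPM in all libraries, and in 23.8% of the 4522 windows of genes with 0 counts in every library. TATAAA was in 11.1% of all windows, in 5.02% of those of genes that reached 1 TPM, and in 18.8% of those of genes at 0 counts. CCAAT was in 33.0% of all windows, and in 35.8% and 34.2% of those same 2 sets. Of the 13 pan-myeloid genes with an entry, 7 held GAGGAA, 1 held CCAAT and 1 held TATAAA. These shares describe letters in a window, not sites that are bound.

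SPI1, the gene of PU.1 (ENSG00000066336.13, chromosome 11, 47354860 to 47378547, minus strand, GRCh38), stood at 277.58, 263.07 and 287.31 TPM in EV replicates 1, 2 and 3. Its mean was 276 ± 12.2 TPM (SD, n = 3), rank 411 among 78651 genes. The 3 libraries lay within 1.09-fold of each other. HOXA9, a homeobox factor of progenitors and of MLL-fusion leukaemia (ENSG00000078399.19, chromosome 7, 27162438 to 27175180, minus strand), followed at 52.21, 54.7 and 59.41 TPM, with a mean of 55.4 ± 3.66 TPM (SD, n = 3) and rank 2164. Its gene model overlaps that of HOXA10 on the same strand, so reads in the shared part cannot be assigned with certainty.

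CD33, an inhibitory Siglec of myeloid cells (ENSG00000105383.16, chromosome 19, 51225064 to 51243860, plus strand), was at 36.19, 36.15 and 39.96 TPM (37.4 ± 2.19, SD, n = 3). LYZ, the secreted antibacterial enzyme lysozyme (ENSG00000090382.7, chromosome 12, 69348381 to 69354234, plus strand), was at 50.46, 29.65 and 28.94 TPM (36.4 ± 12.2, SD, n = 3). LYZ was high in replicate 1 only, and its range encloses that of CD33, so the order of these neighbours is not settled by the spread. MPO, myeloperoxidase (ENSG00000005381.9, chromosome 17, 58269855 to 58280935, minus strand), was lowest of the 5 at 6.61, 8.39 and 5.82 TPM (6.94 ± 1.32, SD, n = 3), rank 9045. The other 4 markers were above MPO in every library, and SPI1 and HOXA9 were in that order in every library.

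**Figure D1:**
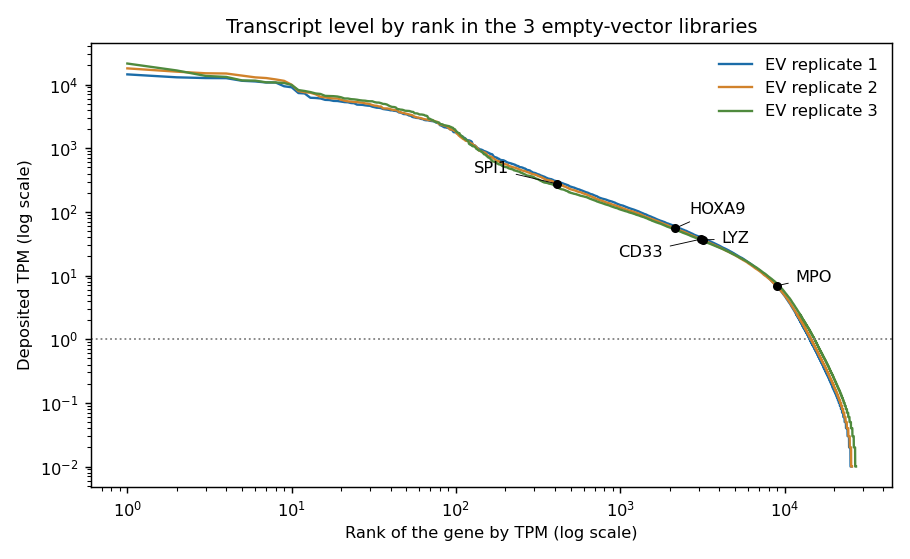
Deposited TPM of each gene (vertical, log scale) against its rank in that library (horizontal, log scale), with 1 line for each EV replicate. Black points are the 5 markers at their mean TPM and rank, from SPI1 at 276 TPM to MPO at 6.94 TPM, and the dotted line is 1 TPM; the 3 lines nearly coincide.

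Transcripts of protein synthesis and of respiration were the most abundant. In all, 13577 genes reached 1 TPM in every library, of which 11272 were protein coding, or 56.3% of the 20021 protein-coding genes measured. Counts were 0 in all 3 libraries for 47612 genes, or 60.5%. A mean of 100 TPM or more was reached by 1222 genes and one of 1000 TPM or more by 135. Only 130 genes together held 50% of the mean TPM. Of the 100 genes with the highest mean, 65 encoded cytosolic ribosomal proteins and 14 were mitochondrial. The 84 ribosomal protein genes took 28.1% ± 2.42 of TPM (SD, n = 3) and the mitochondrial genes 12.5% ± 1.28.

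The highest of all was EEF1A1, the elongation factor that brings aminoacyl-tRNA to the ribosome, at 14450.5, 15936.8 and 21388.9 TPM. Replicate 3 was 1.48-fold above replicate 1 at this gene. EEF1A1 has many processed copies in the genome, so its count is uncertain. The other genes among the top 20 were 10 mRNAs of the respiratory chain and ATP synthase encoded in mitochondria, and 9 ribosomal protein genes led by RPS18 (12296 ± 1249 TPM, SD, n = 3) and RPS27 (9967 ± 585). MT-ATP8, a short subunit of ATP synthase, ranked 2 at 15733 TPM but rested on only 532, 648 and 1058 expected counts, and it ranked 7379 when counts were not divided by length. MT-ATP6, which shares its transcript, had 90183, 103411 and 119235 counts and rank 9. MT-ND4L and MT-ND4, which also share a transcript, had 7843 to 9764 and 276838 to 332991 counts at mean levels of 13028 and 11194 TPM. TPM of very short genes therefore carries a large scaling factor, which at MT-ATP8 differed between libraries. MT-ATP8 was at 17955.4 TPM from 648 counts in replicate 2 and at 16645.1 TPM from 1058 counts in replicate 3.

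Outside ribosomal proteins, mitochondria and translation, the highest protein-coding genes were those of iron storage and the cytoskeleton. FTL, the light chain of ferritin, was at 4259.41, 4226.59 and 2793.93 TPM, with replicate 3 lowest. ACTB, cytoplasmic beta-actin, had a mean of 3649 ± 631 TPM (SD, n = 3) and TMSB4X, which binds actin monomers, 3329 ± 589. Others among the highest, named after their values were seen, were the nuclear protein gene PTMA (2656 ± 459), LGALS1, which encodes galectin-1 (2631 ± 416), YBX1, an RNA-binding factor (2518 ± 514), and CA2, the cytosolic carbonic anhydrase II (2286 ± 325). Among glycolytic enzymes GAPDH (2315 ± 193) and ENO1 (1455.3, 1292.44 and 958.65 TPM in the 3 libraries) led. Of 21 such genes 18 reached 1 TPM in every library, against 56.3% of all protein-coding genes. PKLR, the pyruvate kinase of liver and red cells, and HK3, a hexokinase of white blood cells, did not, at mean levels of 0.00667 and 0.450 TPM.

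The most abundant long noncoding RNAs were hosts of small nucleolar RNAs. SNHG32 stood at 373.97, 414.78 and 857.2 TPM, GAS5 at 359.1, 458.87 and 721.25, and SNHG5 at 452.25, 453.47 and 547.56. ZFAS1 followed with a mean of 344 ± 132 TPM (SD, n = 3). All 4 were highest in replicate 3, the library in which long noncoding RNAs took 2.20% of TPM against 1.62% and 1.75% in replicates 1 and 2. Of 17691 long noncoding genes, 1604 reached 1 TPM in every library.

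Among 18 lists of cell type markers, those of granule proteins of promyelocytes and of general myeloid genes stood highest. The median of all genes that reached 1 TPM in every library was 12.5 to 13.1 TPM in each. The limit of 1 TPM in every library was passed by 56.3% of all protein-coding genes. The azurophil granule list passed this limit at 13 of 13 members, with a median of 266 TPM. The pan-myeloid list passed it at 19 of 20, with a median of 57.6 TPM. Mature monocyte markers passed it at 8 of 20, with a median of 1.04 TPM. Medians of the other 15 lists ran from 0.00333 TPM for late neutrophil genes to 0.0867 TPM for macrophage genes. Because this is a bulk measurement, few cells at a high level and many cells at a low one cannot be told apart.

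**Figure D2:**
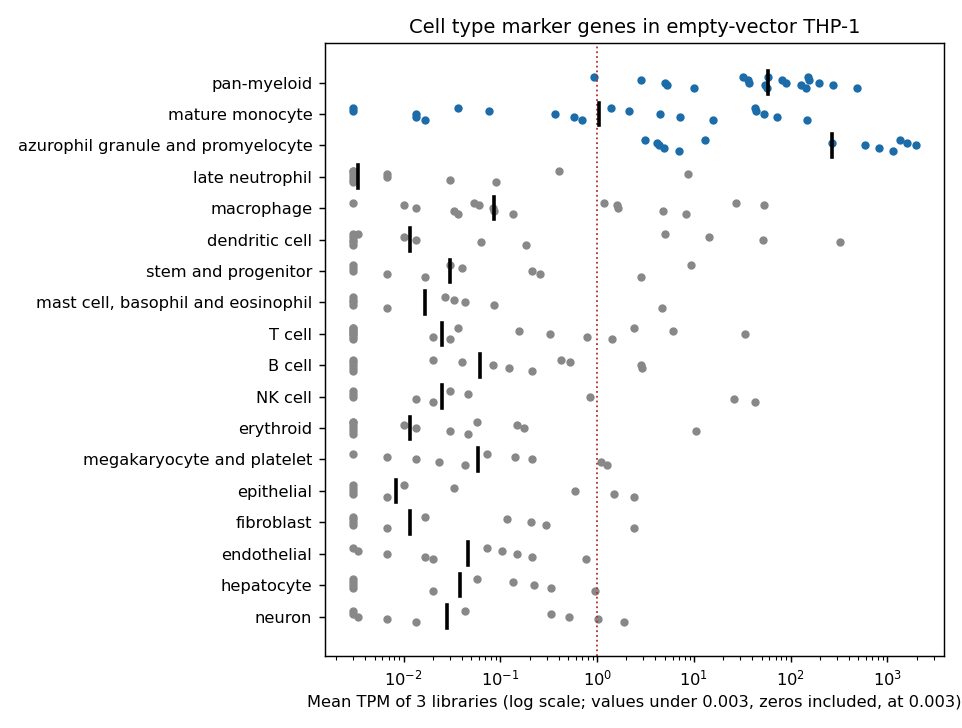
Mean TPM over the 3 EV libraries (horizontal, log scale) of every member of 18 marker lists, where each point is a gene, black bars are list medians and the dotted line is 1 TPM; means under 0.003 are drawn at 0.003. Blue rows are the 3 monocyte and promyelocyte lists, whose medians are 57.6, 1.04 and 266 TPM, and grey rows are the other 15, whose medians are all under 0.1 TPM.

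The azurophil granule list was split, with 7 of 13 members at a mean of 266 TPM or more and 6 at 13.1 TPM or less. Of its serine protease family members, PRTN3, ELANE, AZU1 and CTSG were in the high set and PRSS57 (2.32, 3.8 and 6.99 TPM) was in the low set with MPO. PRTN3, proteinase 3, was at 2565.62, 2330.05 and 1058.97 TPM, and replicate 3 was the low library. ELANE, neutrophil elastase, was at 1785.9, 1584.37 and 1405.52 TPM, rank 105. AZU1, the antimicrobial azurocidin, was at 953.02, 1122.88 and 1311.86 TPM and CTSG, cathepsin G, at 727.71, 804.8 and 921.11, both highest in replicate 3. These genes did not share an order of libraries. SRGN, the proteoglycan that packs granule contents, was at 1349 ± 87.7 TPM (SD, n = 3). The eosinophil-derived ribonuclease RNASE2 was at 287.07, 312.64 and 196.89 TPM and its relative RNASE3 at 6.11, 5.05 and 3.44. CST7, a cystatin, was the lowest of the list at 2.62, 3.34 and 3.45 TPM. Genes of later neutrophil granules were at or near 0. LTF, CAMP, LCN2, MMP8 and MMP9 had means of at most 0.407 TPM, and CXCR2, a chemokine receptor, was the 1 of 12 late neutrophil genes above 1 TPM in every library, at 9.46, 7.86 and 8.6 TPM.

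Subunits of the phagocyte oxidase were far apart. CYBA, the small membrane subunit p22-phox, was the highest of the pan-myeloid list at 582.05, 493.78 and 363.68 TPM. CYBB, the catalytic subunit gp91-phox that pairs with it, was at 1.01, 0.93 and 0.87 TPM, the only member of the list that missed 1 TPM in some library. The cytosolic subunits NCF4 and NCF1 were at 47.3 ± 6.79 and 2.10 ± 1.20 TPM (SD, n = 3 each). NCF1 has near-identical pseudogene copies and is uncertain. LAPTM5, a lysosomal membrane protein of blood cells, CEBPA and LILRB4, an inhibitory receptor, completed the 5 highest pan-myeloid genes with CYBA and SPI1, at 194 ± 11.3, 153 ± 17.8 and 150 ± 32.2 TPM (SD, n = 3 each).

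The mature monocyte list was divided. FCGR1A, the high-affinity IgG receptor CD64, was at 144.99, 138.95 and 159.92 TPM, although near-identical copies of it lie on the same chromosome. CCR2, the receptor that draws monocytes to CCL2, was at 73.75, 71.7 and 69.8 TPM. THBD, thrombomodulin, was at 72.12, 52.35 and 34.0 TPM, MS4A7 at 38.96, 46.35 and 46.92 and MNDA, a nuclear protein of myeloid cells, at 48.17, 44.65 and 36.47. By contrast CD14, the co-receptor for lipopolysaccharide, was at 1.47, 0.84 and 1.83 TPM from 44, 23 and 52 counts. The calcium-binding genes S100A8 and S100A9, among the most abundant mRNAs of blood monocytes, were at 3.91, 0.0 and 2.41 TPM and at 11.21, 5.87 and 4.26 TPM. FCN1, which encodes ficolin-1, had 0 counts in all 3 libraries, which allows up to 3 counts, or 0.0918 to 0.101 per 1000000 counts (CPM), in each. Such limits cover counting error only.

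Some single markers of other cell types were plainly present, without the genes that define those cells. NCAM1, the adhesion molecule CD56, was at 44.39, 38.98 and 45.39 TPM and NKG7, a granule membrane protein, at 27.05, 25.96 and 25.29, while the other 8 NK cell genes missed 1 TPM in at least 1 library and KLRD1, NCR1 and FGFBP2 were at 0.00 TPM. LAT, an adaptor of T cell receptor signalling, was at 34.21, 28.66 and 39.25 TPM, TCF7 at 6.58, 5.85 and 5.77 and TRAC at 2.98, 2.42 and 1.73, while CD3D, CD3E, CD3G, CD2, CD8A, CD8B, LCK and CD28 were at 0.00 TPM in each library. Of B cell genes, BANK1 (2.27, 2.77 and 3.77 TPM) and CD79B (3.13, 2.09 and 3.24) reached 1 TPM in every library, and MS4A1, CR2, BLK, IGHM and VPREB1 were at 0.00. EPOR, the erythropoietin receptor, was the 1 of 14 erythroid genes that did, at 11.48, 8.98 and 10.84 TPM, and the 5 globin genes listed were at 0.00 TPM. The summed TPM of the lists was 46.98, 39.72 and 49.09 for T cells, 72.31, 65.65 and 71.98 for NK cells and 6.53, 6.21 and 8.79 for B cells.

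Among dendritic cell genes, IRF8, which directs monocytes and dendritic cells, was at 386.41, 319.13 and 271.02 TPM. CD209, a lectin that binds pathogens, was at 62.03, 46.1 and 45.24 TPM and BATF3 at 13.84, 14.36 and 14.61, while CLEC9A, CLEC10A, CCR7, CD1A and CD207 were at 0.00. Of the macrophage list 6 of 17 reached 1 TPM in every library, against 56.3% of all protein-coding genes. CHI3L1 (62.64, 51.79 and 44.54 TPM), a secreted chitinase-like protein, and TREM2 (34.38, 27.62 and 20.52), a lipid-sensing receptor, were the highest, and SIGLEC1, a sialic acid receptor, ranged from 2.28 to 13.48 TPM. GPNMB (6.16, 4.01 and 4.32 TPM), APOE (1.39, 1.26 and 2.25) and MARCO (1.95, 1.58 and 1.3) also reached that level. MRC1, MSR1, C1QB and C1QC, which mark tissue macrophages, had means of at most 0.0533 TPM. C1QA, of the same list, had a mean of 0.133 TPM, and VSIG4 was at 1.5, 0.87 and 1.13 TPM. The stem cell marker CD34 was at 0.00 TPM in each library and KIT at 0.02, 0.06 and 0.01, while GATA2 was at 9.7, 9.85 and 8.17 and the receptor tyrosine kinase FLT3 at 2.94, 2.99 and 2.52. Epithelial, fibroblast, endothelial, hepatocyte and neuron lists had 2, 1, 0, 0 and 1 of 10 members each at 1 TPM in every library, none above a mean of 2.42 TPM.

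Of all protein-coding genes 56.3% reached 1 TPM in every library, and of 42 transcription factors of blood cells 28 did. The highest were IRF8, SPI1, MYB (218.29, 224.49 and 334.65 TPM), MYC (239.52, 199.94 and 173.02) and CEBPD (151.96, 157.85 and 198.6). MYB keeps progenitors immature and MYC drives growth. IRF8 and SPI1 overlapped in their ranges, as did SPI1 and MYB, and MYB and MYC. CEBPE, which is needed for late granulocytes, was at 0.52, 0.33 and 0.34 TPM. Factors known from lymphoid cells were uneven, with BCL11A at 12.53, 14.53 and 14.61 TPM, TCF7 at a mean of 6.07, GATA3 at 0.793, PAX5 at 0.420 and EBF1 at 0.0833. The erythroid factors GATA1 and KLF1 had means of 0.173 and 0.0300 TPM.

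HOX genes differed by cluster and by position within it. In the HOXA cluster the 4 genes at the 5′ end were the highest, with HOXA9 at 55.4 TPM, HOXA10 at 31.54, 28.32 and 28.51, HOXA11 at 9.18, 10.19 and 11.29 and HOXA13 at 7.2, 7.72 and 9.47. Levels of these 4 did not overlap with each other or with any other HOXA gene in these libraries, except that the lowest HOXA11 value lay below the highest HOXA13 value. HOXA5 was next with a mean of 3.04 TPM, and HOXA2 was the lowest with 0.0933 TPM. In the HOXB cluster 5 of 10 reached 1 TPM in every library, led by HOXB6 at 8.49, 9.92 and 10.0 TPM, and HOXB2 had 0 counts. That limit was passed by 56.3% of all protein-coding genes. No HOXC or HOXD gene reached it in every library, and 6 of 9 HOXD genes had 0 counts. HOXD8 came nearest, at 1.21, 0.82 and 2.85 TPM.

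**Figure D3:**
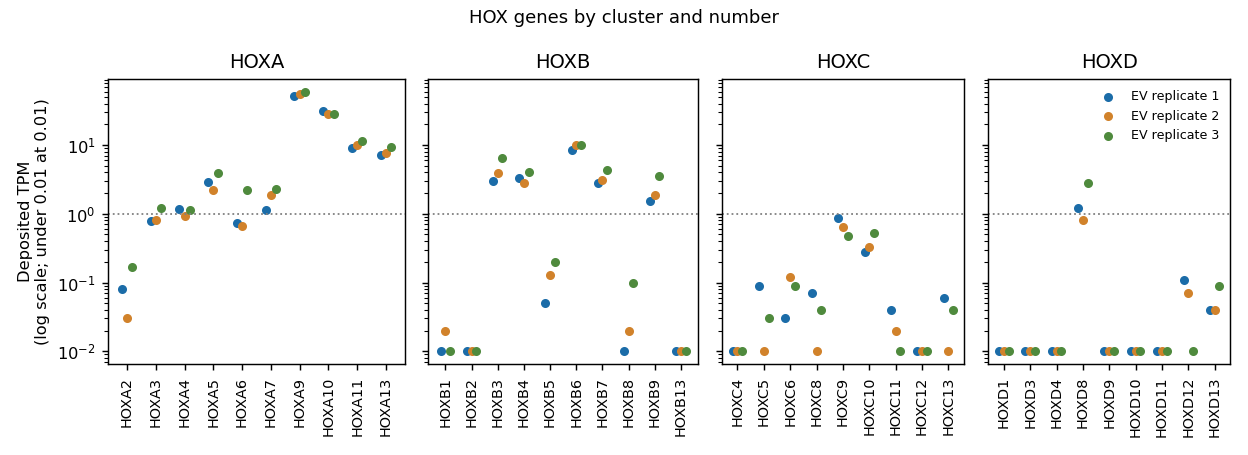
Deposited TPM (vertical, log scale, values under 0.01 drawn at 0.01) of HOX genes of the 4 clusters, by cluster and gene number, with 1 point per EV replicate; the dotted line is 1 TPM. HOXA9, at 52.21 to 59.41 TPM, is the highest and HOXA10 is next, HOXA11, HOXB6 and HOXA13 lie between 7.2 and 11.29 TPM, and no HOXC or HOXD gene is above the line in all 3 libraries.

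Of 16 other genes linked to the MLL-fusion programme, 15 reached 1 TPM in every library, against 56.3% of all protein-coding genes. MYB, the chromatin tether PSIP1 (148 ± 5.04 TPM, SD, n = 3), PBX3 (53.64, 58.61 and 90.7), BCL2 (46.5 ± 8.71) and ZNF521 (44.6 ± 10.3) were the highest. MEIS1, the usual partner of HOXA9, was the lowest at 0.86, 1.13 and 1.59 TPM, while PBX3, the other partner of HOXA9, stood far above it. The fusion partners themselves, counted as whole genes, were at 6.57, 6.39 and 7.86 TPM for KMT2A and 12.95, 14.34 and 15.72 TPM for MLLT3. Counts per gene cannot separate fusion transcripts from those of the intact genes.

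A stretch of chromosome 9 had no counts. From IFNA4 to CDKN2B (21186618 to 22009305, GRCh38, 822688 bases) all 17 protein-coding genes, and all 39 annotated genes of any type, had 0 counts in each of the 3 libraries. They include CDKN2A and CDKN2B, which encode inhibitors of the cell cycle kinases CDK4 and CDK6, MTAP, an enzyme of methionine salvage, KLHL9, a ubiquitin ligase adaptor, and 13 interferon genes. Over all genes measured, counts were 0 in all 3 libraries for 60.5%, and for 3851 of the 20021 protein-coding genes. Most interferon genes are silent in resting cells, and MTAP is a housekeeping gene. On one side, HACD4 was at 7.47, 8.66 and 9.45 TPM, FOCAD at 14.63, 13.94 and 10.12 and IFNB1 at 1.43, 0.55 and 0.14. Between IFNB1 and the stretch, IFNW1 had 0 counts in each library and IFNA21 had 0, 0 and 1. That edge of the stretch therefore rests on 1 count in replicate 3. On the other side, DMRTA1 was at 0.01, 0.02 and 0.03 TPM, ELAVL2 at 2.54, 2.28 and 2.26, and TUSC1, named after its value was seen, at 20.79, 20.78 and 26.07. Loss of CDKN2A is a known feature of the THP-1 line. DNA was not measured here, and the cause of the 0 counts was not tested.

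Other cell cycle genes were abundant. All 28 proliferation genes reached 1 TPM in every library, against 56.3% of all protein-coding genes, with a median of 95.7 TPM. The highest were CDC20 (497.03, 392.12 and 226.48 TPM), TYMS (338.05, 278.54 and 185.74), MCM7 (308.65, 263.83 and 171.48), MCM3 (287.99, 246.61 and 145.55) and PCNA (255.72, 207.18 and 113.89). Every one of these 5 was highest in replicate 1 and lowest in replicate 3. Among inhibitors, CDKN2C (p18) was at 128.37, 136.67 and 141.53 TPM and CDKN1A (p21) at 4.92, 3.12 and 3.51. In the BCL2 family the survival gene MCL1 was highest (116 ± 3.20 TPM, SD, n = 3), and BCL2A1 was lowest at 0.00, 0.25 and 0.07 TPM.

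Receptors and ligands of the resting cells were uneven. Beside the counts below, 56.3% of all protein-coding genes reached 1 TPM in every library. Of MHC class I genes 9 of 11 reached 1 TPM in every library, with B2M, its light chain, at 1547.93, 1362.81 and 1074.71 TPM and HLA-B at 525 ± 34.1 (SD, n = 3). Of class II genes CD74, the invariant chain, was at 342.58, 378.59 and 340.43 TPM and HLA-DRB1 at 24.93, 25.73 and 28.78, and 5 of 13 reached 1 TPM in every library, with HLA-DRB5, HLA-DMA and HLA-DQB1 between 1.57 and 9.28. HLA-DRA was at 0.79, 2.2 and 2.86, HLA-DQA1 at 0.00 and the class II activator CIITA at 0.38, 0.35 and 0.37. HLA genes vary between people and resemble each other, so their counts are uncertain. TLR2 was the highest toll-like receptor at 31.59, 35.88 and 40.55 TPM. TLR9 and TLR4 were at 3.11 ± 0.131 and 2.39 ± 0.295, and the other 7 did not reach 1 TPM in every library. Among Fc receptors, FCER2 (CD23), which binds IgE, was at 142.67, 126.13 and 153.38 TPM beside FCGR1A, while FCGR3A and FCGR3B had means of at most 0.0133. CSF3R, the G-CSF receptor, was at 36.09, 49.76 and 81.4 TPM and CSF1R, the M-CSF receptor, at 19.31, 16.26 and 12, with opposite orders of libraries. MIF (1330.35, 1064.9 and 659.08 TPM), CCL5 (141 ± 8.38) and TNF (56.55, 45.85 and 76.21) led the cytokines, and IL6, IL10 and CSF2 were at 0.00 TPM.

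The spread between the EV libraries was smallest when replicate 3 was left out. The common biological coefficient of variation, which is the spread of a typical gene beyond counting error, was 0.189 over the 3 libraries (edgeR, 16143 genes after a filter on low counts). It was 0.0922 without replicate 3, 0.252 without replicate 2 and 0.181 without replicate 1. Among 7518 named genes with a mean of 10 TPM or more, the median coefficient of variation (CV) of TPM was 10.6%, and the highest library was a median 1.23-fold above the lowest. The CV was under 10% for 46.5% of these genes and over 50% for 0.585%. Above 10 TPM the CV hardly depended on level. Its median was 10.5% between 10 and 30 TPM, where counting error alone would give 2.91%, and 10.6% from 1000 TPM, where counting alone would give 0.552%.

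**Figure D4:**
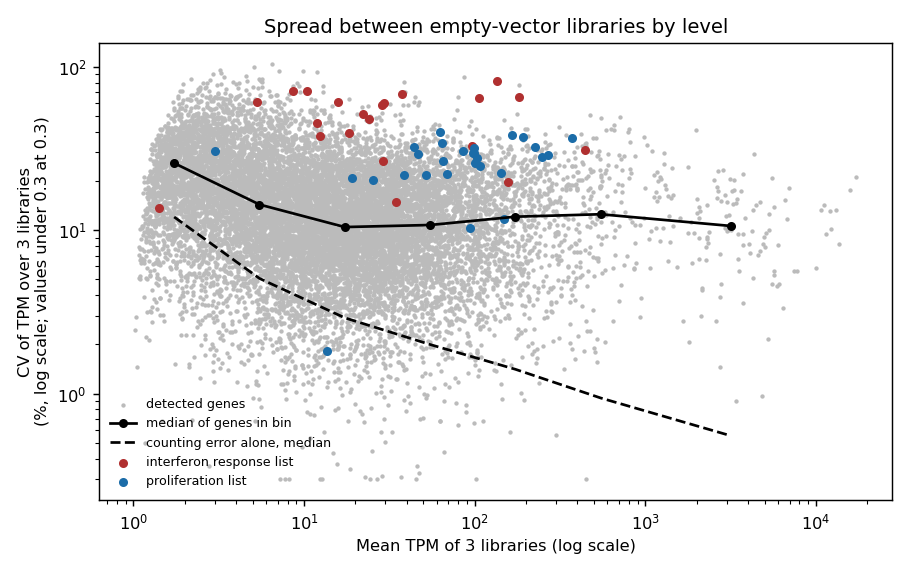
CV of TPM over the 3 EV libraries (vertical, log scale) against mean TPM (horizontal, log scale) for detected genes (grey), with the median in bins of level (solid line) and the median counting error (dashed line). Red points are the interferon response list, most of them above the median line, and blue points the proliferation list; medians stay between 10.5% and 12.5% above 10 TPM.

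Interferon response genes had the highest median CV among the lists with 3 or more detected members. All 21 reached 1 TPM in every library, against 56.3% of all protein-coding genes. The median CV of the 21 was 51.4%, against 12.8% for all detected genes. IFI6, a mitochondrial survival protein induced by interferon, was at 248.19, 126.97 and 28.75 TPM. ISG15, a ubiquitin-like modifier, was at 177.34, 101.58 and 39.77 TPM, IFI27 at 245.46, 255.38 and 44.52, and IFITM1, which blocks viral entry, at 56.74, 46.8 and 8.63. Replicate 3 was the low library at all 4, and replicate 1 the high one except at IFI27. In the list as a whole 19 of 21 were highest in replicate 1 and lowest in replicate 3, and 0 the other way round. Of all 13577 detected genes 32.6% had the first order and 27.0% the second. Only MX1 (1.52, 1.19 and 1.53 TPM) was not lowest in replicate 3. The median member was 2.99-fold higher in replicate 1 than in replicate 3. Replicate 2 was also below replicate 1 at 20 of 21, against 61.5% of all detected genes. IFNB1, a type I interferon gene near the chromosome 9 stretch at 0 counts, had 20, 7 and 2 counts in replicates 1, 2 and 3.

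The same order of libraries was common in proliferation, glycolysis and actin genes, and the opposite one in ribosomal genes. It held for 24 of 28 proliferation genes, with a median of 1.78-fold from replicate 1 to replicate 3. It also held for 14 of 18 glycolysis genes (1.48-fold) and 12 of 16 actin cytoskeleton genes (1.17-fold). Of all 13577 detected genes, 32.6% had this order and 27.0% the opposite one. Of the cytosolic ribosomal proteins 59 of 82 were highest in replicate 3 and lowest in replicate 1, with a median of 1.18-fold, as were 11 of 16 translation factors (1.24-fold), 9 of 15 MLL-programme genes (1.21-fold) and 12 of 22 immediate early genes (1.17-fold). FOSB, an AP-1 subunit, was at 3.03, 6.01 and 20.43 TPM and KLF2 at 3.69, 6.26 and 17.34, both high in replicate 3. MYC, in the same list, went the other way. With counts scaled by trimmed mean of M-values (TMM) in place of TPM, the order counts were 18 of 21 for interferon, 24 of 28 for proliferation, 13 of 18 for glycolysis, 12 of 16 for actin and, in the opposite direction, 58 of 82 for ribosomal proteins. On TMM-scaled counts, 4544 of the 13577 detected genes were highest in replicate 1 and lowest in replicate 3, and 3970 the other way round. Over the libraries, long noncoding RNAs took 1.62%, 1.75% and 2.20% of TPM and mitochondrial genes 11.2%, 13.8% and 12.6%. Whether these shares bear on the order of libraries in the lists was not tested.

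**Figure D5:**
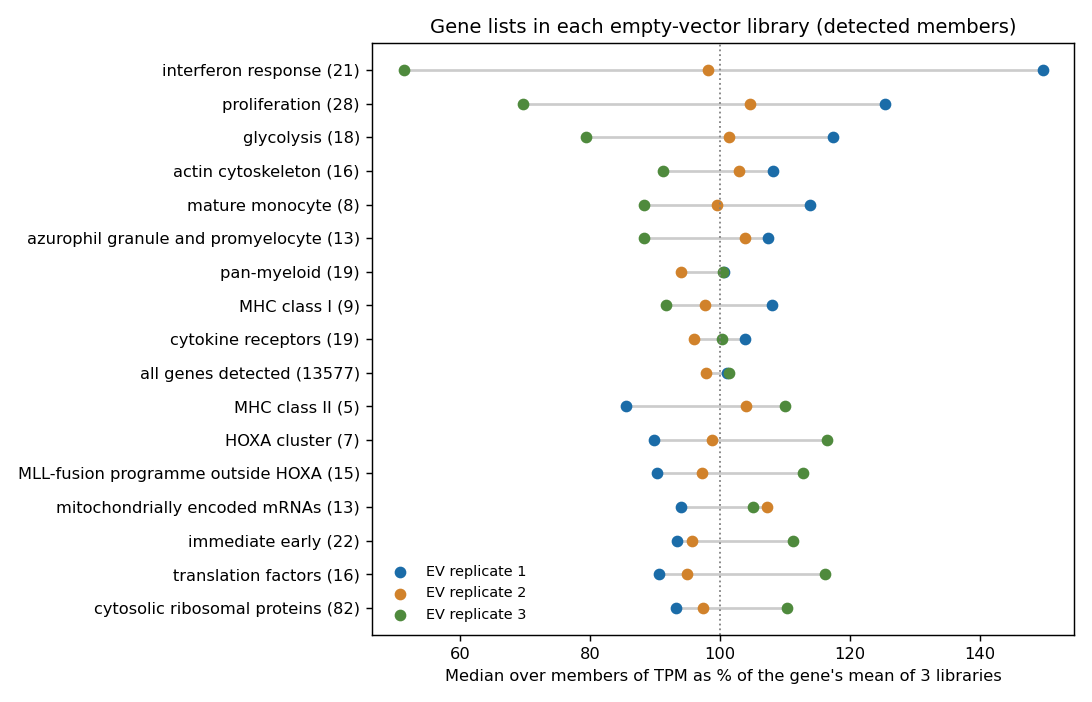
Median over the detected members of each list (number in brackets) of TPM as a percentage of the gene's mean over the 3 EV libraries (horizontal), with 1 point per replicate and a grey line over their range. The interferon list spans from 51.4% in replicate 3 to 150% in replicate 1, the ribosomal proteins from 93.2% in replicate 1 to 110% in replicate 3, and all detected genes stay within 97.8% to 101%.

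By rule the 15 genes with the highest CV at 10 TPM or more were named, and 6 of them were not protein coding. The rows TPTEP1 (ENSG00000100181.23), SNRPGP10, RPS28P7 and RPS27P4, pseudogenes, had means under 10 counts, so their mean TPM of 10.4 to 18.3 rested on few reads. The pseudogene CYP4F33P had 3, 10 and 23 counts, and the antisense RNA FOXD1-AS1 and the read-through gene RPL36A-HNRNPH2 had 0 in replicate 2. XPNPEP3, a mitochondrial aminopeptidase, was at 24.69, 5.64 and 5.25 TPM, yet its counts were 1093, 1027 and 1029 and its CV on TMM-scaled CPM was 6.80%, so the difference lay in the scaling and not in the number of reads. The others kept a high CV on CPM. They were IFI6, IFI44L (16.51, 12.41 and 2.24 TPM), IFITM1, IFI27, ISG15, the protease inhibitor SLPI (71.88, 33.07 and 10.49) and the amylase AMY2B (6.07, 8.43 and 24.03), which has near-identical relatives.

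The 5 genes of lowest CV were GIT2, FBXO28, RCC1, LAT2 and FBXO30. RCC1, the nucleotide exchange factor of Ran, was at 102.4, 102.64 and 102.23 TPM, and LAT2, a myeloid adaptor, at 446.58, 447.04 and 448.59. On TMM-scaled CPM the CVs of these 5 genes were 1.37% to 5.15%. Among 18 genes often used as references for quantitative PCR, YWHAZ was the steadiest at 501.75, 495.16 and 513.93 TPM (CV 1.89%), followed by IPO8 (4.75%) and TBP (5.85%), among those named here. GAPDH had a CV of 8.34%, ACTB of 17.3%, HPRT1 of 22.9% and PGK1 of 23.8%. TFRC, the transferrin receptor, was the least steady, at 38.64, 27.15 and 13.08 TPM (CV 48.7%). Of the 18 genes, 14 were highest in replicate 1 and lowest in replicate 3, against 32.6% of all 13577 detected genes.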

How the data were processed

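RNA from 3 EV libraries was analysed. The authors deposited expected counts per versioned Ensembl gene. Build GRCh38 and the tools featureCounts, STAR and FastQC 0.11.5 are listed, without their roles, per the submitters' processing notes. Settings, strandedness and annotation release are not given in the sources used here. Antisense and overlapping genes may therefore share reads. Of these values 7.54% to 8.25% were not whole. The deposited TPM are length-scaled and sum to 1000000 per library, and the deposited FPKM are scaled for length and depth. The length is not the same in every library for some genes.

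Of 78686 rows, 61463 matched a GENCODE release 44 gene, 17223 had no name (0.237% to 0.312% of counts), and 35 gene pairs listed on X and Y were summed. Levels, ranks, SD and CV (SD divided by mean) were computed on TPM in Python 3.11.15 with pandas 2.3.3. Detected means 1 TPM or more in all 3 libraries. Counts were rounded, filtered with filterByExpr, scaled by TMM, and the common dispersion estimated with edgeR 4.0.16 (R 4.3.3), which was tested on simulated data. The design holds 1 group, so no test was made. Alternatives were other limits, units, scalings and filters, and each replicate left out.

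Named genes were the 5 markers, the 20 highest, up to 5 leading members and the lowest of each list (45 lists), members of HOX, 9p21 and reference lists, the 15 most and 5 least variable and the leading long noncoding RNAs; defining markers at 0 and others outside the rule were chosen after their values were seen. Some listed genes are not reported here. Members and lists were chosen with earlier results of these data known.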

Additional observations from a re-analysis of the deposited data

How the results depend on the processing

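The number of genes at 1 TPM or more in every library was 13577, and 15244 and 9541 at limits of 0.5 and 5 TPM. It was 12988 on FPKM, 13843 without mitochondrial genes, and 13725 to 14053 with a replicate left out. The number of genes holding 50% of TPM depended on the unit. It was 130 on TPM, 204 without mitochondrial genes, 864 on CPM with no length scaling, and 117 to 142 with a replicate left out. The pan-myeloid median was 57.6 TPM (SD between libraries 10.5), 45.3 on FPKM, 65.9 without mitochondrial genes, and 53.3 to 62.5 with a replicate left out. The common biological coefficient of variation was 0.189, and 0.0922 to 0.252 with a replicate left out, the lowest without replicate 3. Other scalings and filters gave 0.173 to 0.213. Of 147 values of single markers and other list medians with a replicate left out, 13 moved by more than the SD between libraries. They were medians of lists at or near 0 and those of cytokines and chemokines and of cathepsins. No paired analysis was possible because a single group was described, with 1 library per replicate number. At 29670641 counts or more, a gene with 0 counts in a library could still be present at up to 0.0918 to 0.101 CPM.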

Other observations

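The highest row without a gene name, ENSG00000293320.1, stood at 980.09, 1195.79 and 1077.06 TPM, and the next, ENSG00000298396.1, at 455.57, 191.28 and 286.11 TPM. Together all unnamed rows took 0.492%, 0.506% and 0.528% of TPM in EV replicates 1, 2 and 3. Of the 13577 detected genes, 95 had a mean under 10 counts, so that their level rests on few reads. Genes of the S100 calcium-binding family differed in their order of libraries. S100A11 was at 710.74, 582.84 and 450.59 TPM and S100A4 at 327.8, 308.22 and 205.21, both lowest in replicate 3, whereas S100P was at 84.59, 111.82 and 135.99 TPM and highest there. PRG2, the major basic protein of eosinophil granules, was at 7.85, 4.3 and 1.93 TPM, the 1 of 10 mast cell, basophil and eosinophil genes that reached 1 TPM in every library.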
